A study of Mus musculus with 40 samples.

Results

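Mgp1U1 is the name of 1 hairpin, and of the 4T1 cell line that carries it, among 10 short hairpin RNAs profiled by RNA sequencing in 4T1 cells, a mouse mammary carcinoma line. It was set against the lines Mgp1, Mgp1U3 and Mgp2, the other lines that were named after Mgp and selected with the same drug. These were the members by name: the 2 deposited libraries of Mgp1U1, of 20 in all, and the 6 libraries of the other 3 lines. Among these 4 lines Mgp1U1 kept the most Mgp transcript, which was known when the comparison was set up, so its Mgp level is given here as a description. Each of the 4 groups consisted of 4T1 cells infected at a multiplicity of 0.3 and grown in 500 µg/ml hygromycin for about 10 days. They differed in the hairpin alone, as far as the labels say. Cells without a hairpin, or with a hairpin against no mouse gene, form no group here, so each difference is one between lines that all carry a hairpin named after Mgp. Of hairpin 88943, in the same table but selected with 1 µg/ml puromycin, only the Mgp level is given.

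A short hairpin RNA is transcribed from an integrated vector, cut by Drosha and Dicer into a small interfering RNA, and loaded into an Argonaute protein. The loaded strand directs cleavage of a matching transcript, and its seed, the bases near its start, can lower other transcripts with short matches, which are called off-targets. Mgp encodes matrix Gla protein, a small secreted protein whose glutamates are carboxylated with vitamin K, which inhibits calcification of soft tissue and binds bone morphogenetic proteins. 4T1 cells are a transplantable model of metastatic breast cancer known for secreting colony-stimulating factors and chemokines.

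The labels list 4 samples for each hairpin and the table holds 2 libraries for each. Nothing says that these came from separate cultures, so the p-values measure the spread between libraries, which may be technical. Recovered totals were 16625384 and 16054008 reads in Mgp1U1, against 12082237 to 22908269 reads in the other 6 libraries. The Mgp1U1 libraries were the closest of the replicate pairs by counts, with a chi-square of 1.59 for each degree of freedom, against 1.92 in Mgp1, 3.93 in Mgp1U3 and 12.7 in Mgp2. Library 1 of Mgp2 stood apart, with 2.39% of its reads on Rn45s, the ribosomal RNA precursor, against 1.63% and 1.71% in Mgp1U1 and lower shares in the other 5. Its part in the results was not tested beyond leaving it out, which is given beside the counts. Epithelial markers were present in all 8 libraries, summing to 1750 to 1760 CPM (reads scaled to the same library total) in Mgp1U1 and 1610 to 1790 CPM in the other 6. Leukocyte markers summed to 16.5 to 18.1 CPM in Mgp1U1 and 15.1 to 20.9 CPM in the others, with Tyrobp at 0 throughout. Fibroblast markers summed to 34.0 to 34.8 CPM in Mgp1U1 and 25.2 to 34.0 CPM in the others, with Col3a1 and Thy1 at 0 throughout. Endothelial markers summed to 4.63 to 5.42 CPM in Mgp1U1 and 4.49 to 6.29 CPM in the others, with Kdr at 0.

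Mgp (ENSMUSG00000030218, GRCm38 chromosome 6, 136872435 to 136875823, minus strand) had 8.42 and 8.22 CPM in Mgp1U1, against 2.47 and 3.19 in Mgp1, 1.06 and 1.24 in Mgp1U3, and 1.90 and 2.07 in Mgp2. These levels rest on 140 and 132 reads in Mgp1U1 and on 15 to 73 reads in the other 6 libraries. Both Mgp1U1 libraries lay above all 6 others, and the mean was 4.19-fold that of the 3 line means. Line 88943 had 16.2 and 15.4 CPM, and the 8 libraries of the 4 hygromycin-selected lines named after Slpi had 14.8 to 31.2 CPM in a table normalized separately. Mgp was below the level required for testing (a mean of 139 scaled reads), so the main fit left it out and no test of it is given here.

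Across the transcriptome the Mgp1U1 line differed from the other 3 by small amounts, in a small share of genes, more of them lower than higher. Of 9109 genes tested with limma, 314 (3.45%) passed an adjusted p of 0.05 against the mean of the 3 other lines, 121 higher (1.33%) and 193 lower (2.12%) in Mgp1U1. Differences are on the deposited variance-stabilized scale, on which a doubling counts as 0.34 at 100 scaled reads, 0.75 at 1000 and 0.96 at 10000. Among the called genes they ran from -0.70 to 0.43 with a median size of 0.19, and the median over all tested genes was -0.004. By CPM means 23 of the 314 differed at least 1.5-fold (4 higher and 19 lower) and 3 at least 2-fold, all lower. In 258 of the called genes both Mgp1U1 libraries were above or below all 6 others, as they were in 12.7% of all tested genes. The count depended on single libraries: it was 49 when either of the Mgp1U1 libraries was left out (the other kept), 171 and 161 without the first or second of Mgp1, 204 without the second of Mgp1U3, and 1065 and 758 without the first or second of Mgp2. With each line's mean as 1 sample, which sets Mgp1U1 against the spread between lines, limma called 0 genes. In that fit the smallest adjusted p was 0.0589 (Sh3bgrl) and 235 genes (2.58%) had an unadjusted p under 0.05, while voom on the recovered reads of the 8 libraries called 381.

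**Figure D1:**
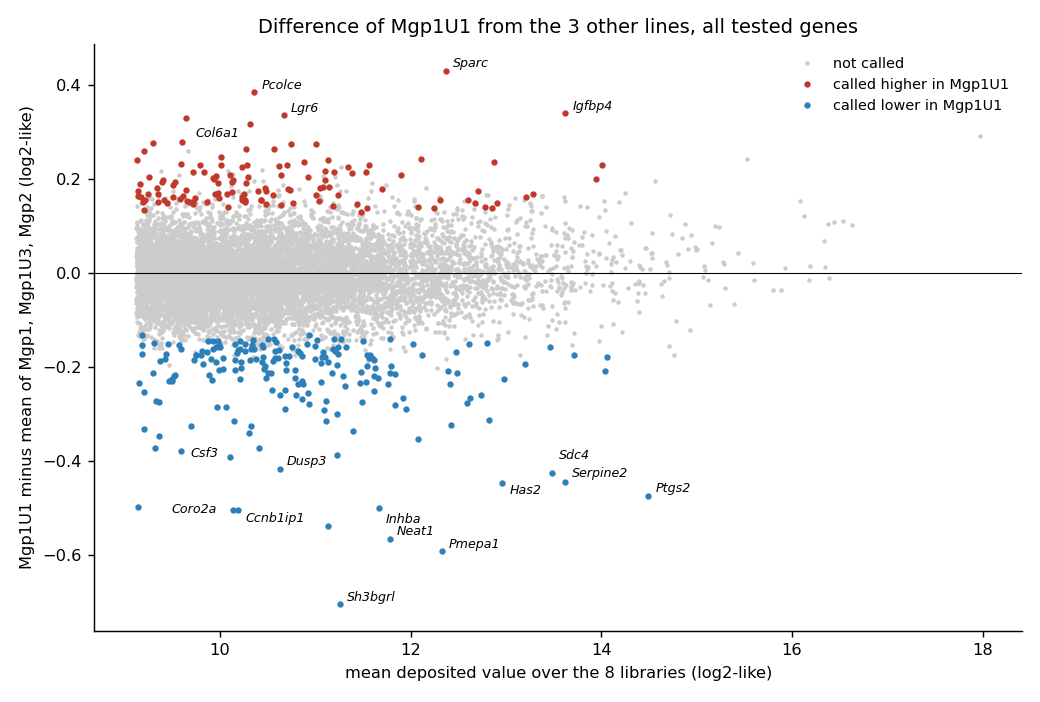
Difference of Mgp1U1 from the mean of Mgp1, Mgp1U3 and Mgp2 (y axis, deposited log2-like scale) against the mean deposited value over the 8 libraries (x axis) for the 9109 tested genes, with the 121 called higher in red and the 193 called lower in blue. The largest differences are negative, reaching -0.70 for Sh3bgrl, while the largest positive one is 0.43 for Sparc.

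Set against single lines, Mgp1U1 differed in 514 genes from Mgp1 (5.64%), in 439 from Mgp1U3 (4.82%) and in 522 from Mgp2 (5.73%). Only 64 genes (0.703%) were called in the same direction against each of the 3, 16 higher (0.176%) and 48 lower (0.527%). All 64 were also among the 314. Of the 314, 154 were called the same way against 2 of the lines, 95 against 1 and 1 against none, and 295 had the same sign against all 3. Without 1 Mgp1U1 library the count against each line was 8, without the first or second Mgp1 library 18 and 16, without the second Mgp1U3 library 25, and without the first or second Mgp2 library 113 and 123. The 3 pairwise comparisons share the Mgp1U1 libraries.

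Both groups of 12 named below were chosen among the genes called against each line with both Mgp1U1 libraries on 1 side of the other 6, so that a lack of overlap was a condition of their choice. The 12 that fell most in Mgp1U1 encode signalling proteins, secreted and matrix factors, and several nuclear or cytoskeletal products. Sh3bgrl, which encodes a small SH3-binding thioredoxin-fold protein (chromosome X, 109095365 to 109197873), had 65.5 and 67.1 CPM in Mgp1U1, against 134 and 144 in Mgp1, 131 and 120 in Mgp1U3, and 114 and 111 in Mgp2. The nearest line was Mgp2. The difference was -0.70 ± 0.04 (SE, limma adjusted p = 1.502e-06), or 1.9-fold lower by CPM. A gene model on the same strand, Gm6377, covers 6.94% of its exon bases. In bulk RNA, fewer cells that express a gene and less of its RNA per cell cannot be told apart.

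Pmepa1, a membrane protein induced by and limiting TGF-beta signalling, had 173 and 188 CPM in Mgp1U1, against 278 and 284 in Mgp1, 260 and 250 in Mgp1U3, and 370 and 300 in Mgp2 (difference -0.59 ± 0.06, adjusted p = 8.328e-05). Inhba encodes the activin A subunit, a ligand of the same family, and had 110 CPM in both Mgp1U1 libraries, against 162 and 161 in Mgp1, 150 and 154 in Mgp1U3, and 218 and 172 in Mgp2 (difference -0.50 ± 0.06, adjusted p = 2.880e-04). For both genes the first Mgp2 library was the highest of the 8. Dusp3, a phosphatase that acts on MAP kinases, had 42.7 and 44.2 CPM in Mgp1U1 and 60.3 to 71.9 CPM in the other 6 (difference -0.42 ± 0.04, adjusted p = 2.905e-05). An opposite-strand gene model, Gm20659, covers 12.9% of the exon bases of Dusp3, and whether the counts used strand is not given in the sources used here.

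Among genes whose products act at the cell surface or in the matrix, Has2, a synthase of the matrix polysaccharide hyaluronan, had 325 and 320 CPM in Mgp1U1, against 476 and 486 in Mgp1, 424 and 442 in Mgp1U3, and 427 and 460 in Mgp2 (difference -0.45 ± 0.04, limma adjusted p = 2.420e-05). Serpine2, a secreted inhibitor of thrombin and plasminogen activators, had 530 and 521 CPM in Mgp1U1 and 659 to 784 CPM in the other 6 (difference -0.45 ± 0.04, adjusted p = 3.794e-05). Sdc4, a heparan sulfate proteoglycan of focal adhesions, had 477 and 488 CPM in Mgp1U1 and 623 to 697 CPM in the other 6 (difference -0.43 ± 0.04, adjusted p = 1.233e-04). For Sdc4 the other 3 lines lay close together, with line means of 661 ± 13.0 CPM (SD, n = 3).

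Ptgs2 encodes cyclooxygenase-2, the inducible enzyme of prostaglandin synthesis, and had 986 and 959 CPM in Mgp1U1, against 1425 and 1491 in Mgp1, 1421 and 1573 in Mgp1U3, and 1149 and 1191 in Mgp2 (difference -0.47 ± 0.04, adjusted p = 5.452e-05). Csf3 encodes granulocyte colony-stimulating factor and had 24.7 and 23.5 CPM in Mgp1U1, against 31.6 and 34.1 in Mgp1, 49.9 and 48.6 in Mgp1U3, and 37.6 and 32.9 in Mgp2 (difference -0.39 ± 0.04, adjusted p = 1.233e-04). Both had their lowest line mean in Mgp1U1 and their highest in Mgp1U3, and the smallest pairwise difference was -0.25 against Mgp2 for Ptgs2 and -0.24 against Mgp1 for Csf3.

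Neat1, the long noncoding RNA of nuclear paraspeckles, had 116 and 118 CPM in Mgp1U1, against 213 and 209 in Mgp1, 140 and 145 in Mgp1U3, and 205 and 229 in Mgp2 (difference -0.56 ± 0.04, adjusted p = 4.364e-06). Here Mgp1U3 was nearest to Mgp1U1, with a pairwise difference of -0.24 against -0.71 and -0.75 for Mgp1 and Mgp2. Coro2a, an actin-binding coronin, had 23.6 and 21.1 CPM in Mgp1U1 and 34.1 to 51.2 CPM in the other 6 (difference -0.50 ± 0.04, adjusted p = 2.420e-05). Ccnb1ip1, a ubiquitin ligase that acts on cyclin B and is needed in meiosis, had 70.5 and 62.9 CPM in Mgp1U1 and 85.7 to 129 CPM in the other 6 (difference -0.54 ± 0.05, adjusted p = 2.420e-05). Its value is uncertain, since Rpph1, the RNA component of ribonuclease P, covers 12.4% of its exon bases on the same strand. The calls of these 12 against each single line did not all hold when an Mgp1U1 library was left out. Against the mean of the other lines, all 12 kept their calls in each alternative that tested them except the fit on line means. The adjusted p of Sh3bgrl over its 18 other alternatives ran from 2.11e-09 to 6.98e-04, and that of Inhba from 4.60e-09 to 0.022.

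The 12 named genes that were highest in Mgp1U1 moved less. Sparc, a secreted calcium- and collagen-binding glycoprotein of bone and tumour matrix (chromosome 11, 55394500 to 55423183), had 334 and 344 CPM in Mgp1U1, against 222 and 216 in Mgp1, 241 and 243 in Mgp1U3, and 281 and 270 in Mgp2. Mgp2 was the nearest line, and the difference was 0.43 ± 0.03 (adjusted p = 2.204e-05), 1.38-fold by CPM. Pcolce, the enhancer of procollagen C-proteinase, had 62.3 and 60.0 CPM in Mgp1U1 and 36.6 to 44.9 CPM in the other 6 (difference 0.38 ± 0.05, adjusted p = 3.303e-04). Col6a1, a chain of the beaded-filament collagen VI, had 55.5 and 55.7 CPM in Mgp1U1 and 37.7 to 44.9 CPM in the other 6 (difference 0.32 ± 0.04, adjusted p = 2.405e-04). Matrix genes did not all move this way: Loxl4, a cross-linker of collagen, Fbln2, a fibulin, and Col7a1, the collagen of anchoring fibrils, looked up after their values were seen, were called lower, with differences of -0.28, -0.26 and -0.24. The fibroblast marker sums given above were also at the top of their range in Mgp1U1, and their part in the results for Sparc, Pcolce and Col6a1 was not tested. Lgr6, a receptor for R-spondins that strengthens Wnt signalling, had 76.5 and 82.3 CPM in Mgp1U1 and 49.2 to 64.2 CPM in the other 6 (difference 0.34 ± 0.04, adjusted p = 1.694e-04).

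Igfbp4, which binds insulin-like growth factors, had 794 and 824 CPM in Mgp1U1 and 590 to 709 CPM in the other 6 (difference 0.34 ± 0.04, adjusted p = 6.156e-04). Slc4a4, a sodium bicarbonate cotransporter, was 1.6-fold higher in Mgp1U1 (16.2 and 14.7 CPM, against 8.20 to 11.1 CPM in the other 6). Tnni2, a troponin subunit of fast muscle, was 1.59-fold higher (12.2 and 13.8 CPM in Mgp1U1, against 5.88 to 10.4 CPM in the other 6). Flt1, a receptor for vascular endothelial growth factor, had 50.5 and 50.1 CPM in Mgp1U1 and 35.2 to 43.6 CPM in the other 6. Endothelial markers as a whole were at the levels given above in every library. Myo18a, a myosin of the Golgi, Cul7, a ubiquitin ligase scaffold, Wdr60, a dynein-2 chain of cilia, and Tmem9, a lysosomal membrane protein, were 1.33-, 1.33-, 1.21- and 1.22-fold higher. The calls of the 12 highest genes against each single line did not all hold when an Mgp1U1 library was left out. Against the mean of the other lines, Sparc, Pcolce, Lgr6 and Col6a1 kept their calls in each alternative that tested them except the fit on line means. The other 8 lost theirs without 1 or the other Mgp1U1 library, with adjusted p up to 0.0557 for Igfbp4, 0.0519 for Slc4a4, 0.126 for Tnni2, 0.0855 for Myo18a, 0.138 for Flt1, 0.129 for Wdr60, 0.138 for Cul7 and 0.218 for Tmem9.

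**Figure D2:**
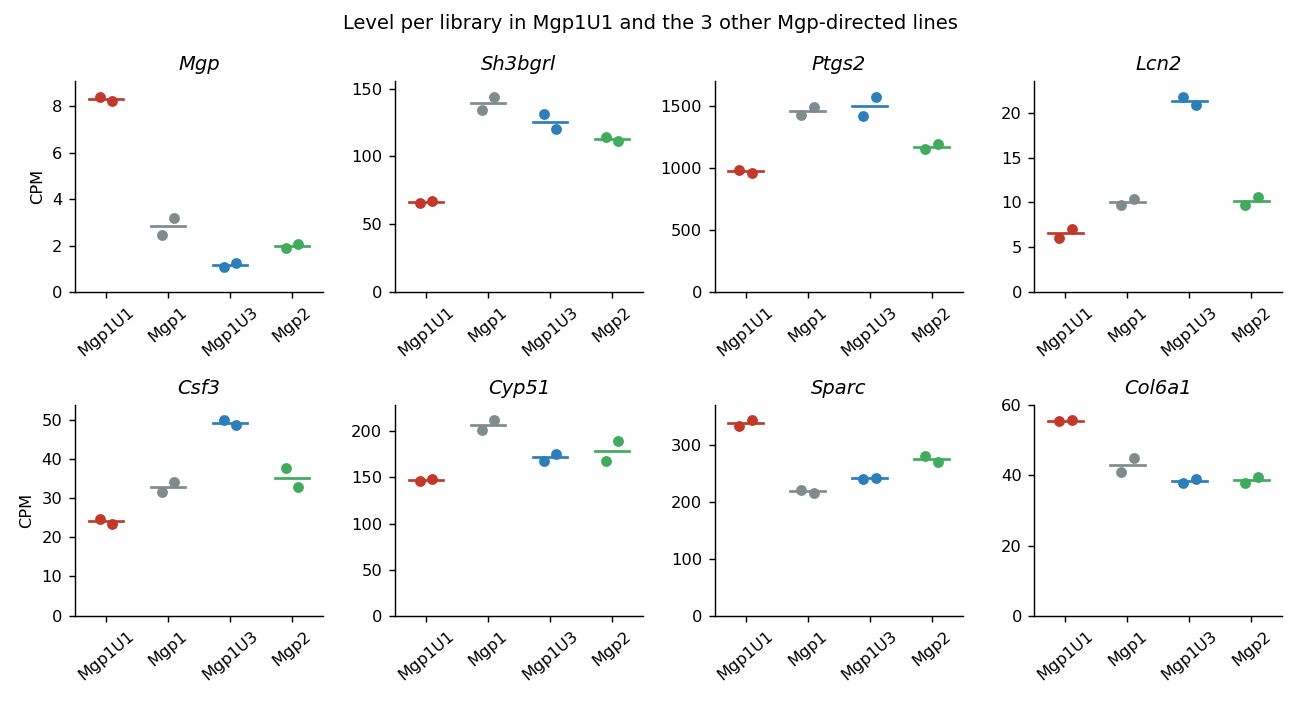
CPM per library (points) and line mean (bar) for Mgp and 7 other genes in Mgp1U1, Mgp1, Mgp1U3 and Mgp2, each y axis starting at 0. Mgp, Sparc and Col6a1 are highest in both Mgp1U1 libraries, and Sh3bgrl, Ptgs2, Lcn2, Csf3 and Cyp51 are lowest in both.

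**Figure D3:**
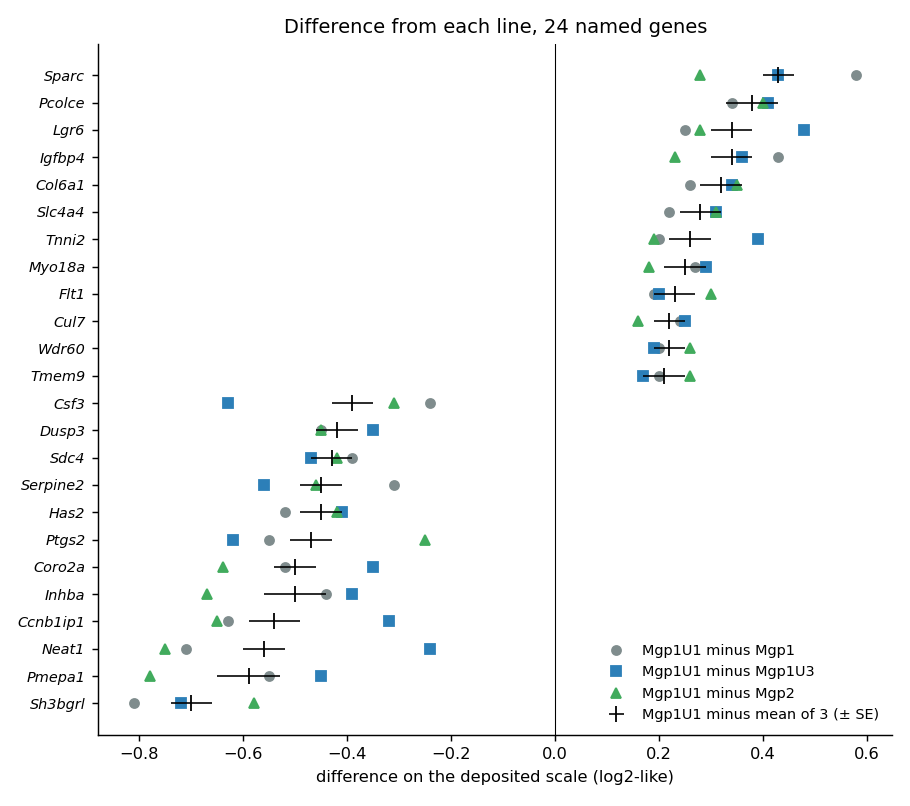
Difference of Mgp1U1 from each single line (symbols) and from the mean of the 3 (tick with SE) for the 24 named genes, on the deposited log2-like scale. That the 3 symbols of a gene lie on the same side of 0 was a condition of its choice. Their distance from 0 differs between lines, as for Neat1, at -0.24 against Mgp1U3 and -0.75 against Mgp2.

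Inflammatory genes that respond to the transcription factor NF-kappaB formed 1 of the 2 lists with the most called members. Of 27 genes on the list 21 were tested, and 9 were lower (42.9%, against 2.12% of all tested genes), 0 higher and 12 not called, with a median difference of -0.10. The summed level of the list was 1870 CPM in both Mgp1U1 libraries and 2110 to 2740 CPM in the other 6. The 9 were secreted or enzymatic products: the chemokines Cxcl1, Cxcl5, Ccl2 and Cxcl16, the cytokines Il1a and Csf3, the siderophore-binding protein Lcn2, complement C3, and Ptgs2. The transcription factor subunits and feedback inhibitors on the list, Nfkb1, Nfkb2, Rela, Relb, Nfkbia, Nfkbie, Nfkbiz and Tnfaip3, were not called, with differences between -0.11 and -0.01.

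In 8 of the 9 the highest line mean was that of Mgp1U3, and Cxcl16 was highest in Mgp2. Lcn2 had 6.01 and 7.04 CPM in Mgp1U1, against 9.65 and 10.4 in Mgp1, 21.8 and 20.9 in Mgp1U3, and 9.70 and 10.6 in Mgp2, and with Ptgs2 and Csf3 it was 1 of the 3 genes called against each line (differences -0.21, -0.69 and -0.21). Il1a, which encodes interleukin-1 alpha, had 3.37 and 3.05 CPM in Mgp1U1, against 8.15 and 8.38 in Mgp1, 22.4 and 24.5 in Mgp1U3, and 3.94 and 4.35 in Mgp2, and was not called against Mgp2 (adjusted p = 0.264). Cxcl5, a neutrophil-attracting chemokine, had 23.8 CPM in both Mgp1U1 libraries, against 33.1 and 36.1 in Mgp1, 90.3 and 90.1 in Mgp1U3, and 22.1 and 23.1 in Mgp2, so that it was not lower than in Mgp2. Cxcl5 lost its call when the line Mgp1U3 was left out (adjusted p = 0.0884). Ccl2 averaged 34.0 CPM in Mgp1U1, above Mgp1 at 31.3 and Mgp2 at 29.7 but below Mgp1U3 at 65.8 CPM, and its difference was -0.15. With the line Mgp1U3 left out, the difference of Ccl2 was 0.10 (adjusted p = 0.146), and without 1 Mgp1U1 library its call was lost (adjusted p up to 0.423). In the same fit without Mgp1U3, 7 of the 21 were called lower. An opposite-strand gene model covers 11.2% of the exon bases of Il1a.

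Genes of cholesterol synthesis formed the other list with 9 called members, with smaller differences. This pathway builds isoprenoids and sterols from acetyl-CoA and is switched on by the factor SREBP2 when sterol in the endoplasmic reticulum runs low. Of 24 genes listed 21 were tested, and 9 were lower (42.9%, against 2.12% of all tested genes), 0 higher and 12 not called, with a median difference of -0.14. A difference below 0 was found in 19 of the 21 tested members, against 52.6% of all tested genes. The summed level was 1990 to 2020 CPM in Mgp1U1 and 2100 to 2420 CPM in the other 6 libraries.

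The promoters of 3 of the called genes are shown because the enzymes they drive act at early, middle and later steps of the pathway, and because each holds the letters CCAAT. These are the core of the CCAAT box, a promoter element bound by the factor NF-Y, and whether they act as one here was not tested. Each is the 250 bases before the transcription start, from RefSeq on GRCm38.p6, 5′ to 3′ on the gene's strand. Capitals mark CCAAT read on either strand (as CCAAT or ATTGG) and, in Hmgcs1, 1 form of the sterol element, TCACNCCAC. Hmgcs1 is chr13:119690101-119690350 on the plus strand, Idi1 is chr13:8885356-8885605 on the plus strand and Cyp51 is chr5:4104698-4104947 on the minus strand. GENCODE M21 starts Idi1 at 8885501 and Cyp51 at 4104746, so by that annotation their CCAAT matches lie inside the genes.
Hmgcs1: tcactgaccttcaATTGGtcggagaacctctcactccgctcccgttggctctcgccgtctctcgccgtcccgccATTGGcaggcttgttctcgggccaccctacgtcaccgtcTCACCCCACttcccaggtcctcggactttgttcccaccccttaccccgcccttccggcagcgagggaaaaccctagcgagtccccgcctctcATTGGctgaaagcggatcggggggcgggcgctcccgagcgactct
Idi1: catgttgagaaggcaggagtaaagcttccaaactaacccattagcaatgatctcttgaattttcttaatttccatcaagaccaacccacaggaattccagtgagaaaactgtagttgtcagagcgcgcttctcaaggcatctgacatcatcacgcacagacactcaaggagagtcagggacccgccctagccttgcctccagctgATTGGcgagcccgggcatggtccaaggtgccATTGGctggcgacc
Cyp51: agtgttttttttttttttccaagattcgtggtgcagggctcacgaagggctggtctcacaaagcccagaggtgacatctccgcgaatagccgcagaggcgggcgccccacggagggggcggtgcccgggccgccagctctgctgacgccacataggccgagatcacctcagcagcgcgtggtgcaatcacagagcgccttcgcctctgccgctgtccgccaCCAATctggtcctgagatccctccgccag
Of the 21 tested genes 14 had a promoter window, and CCAAT was in all 14 (7 of the 7 called lower and 7 of the 7 not called), against 37.5% of 27025 genes with a window. The exact pattern TCACNCCAC was in 1 of the 7 called lower and in 1.22% of all genes, on either strand and with no overlap with CCAAT in Hmgcs1. Other forms of the sterol element were not searched for. A match describes the letters in these windows, and it did not separate called from uncalled members. In the NF-kappaB list the windows were read for the kappaB consensus GGGRNNYYCC (R is A or G, Y is C or T). It was in 1 of the 5 genes called lower that had a window (Cxcl1) and in 6 of the 9 not called. Of all 27025 genes with a window 8.23% had it.

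Hmgcs1, which makes HMG-CoA, had 117 and 109 CPM in Mgp1U1, against 144 and 152 in Mgp1, 128 and 129 in Mgp1U3, and 132 and 129 in Mgp2 (difference -0.21 ± 0.04, adjusted p = 0.00651). Idi1, the isopentenyl diphosphate isomerase, had 65.4 and 66.1 CPM in Mgp1U1, against 97.0 and 90.6 in Mgp1, 81.8 and 83.3 in Mgp1U3, and 81.6 and 80.3 in Mgp2 (difference -0.28 ± 0.03, adjusted p = 5.077e-04). Cyp51, the lanosterol demethylase, had 146 and 148 CPM in Mgp1U1, against 202 and 212 in Mgp1, 168 and 176 in Mgp1U3, and 168 and 190 in Mgp2 (difference -0.28 ± 0.04, adjusted p = 0.0016). In all 3 genes the Mgp1U1 libraries were the lowest and the Mgp1 libraries the highest of the 8. Idi1 and Cyp51 were called against each line, and Hmgcs1 against Mgp1 alone (adjusted p = 0.0026, against 0.0589 for Mgp1U3 and 0.0553 for Mgp2). Opposite-strand gene models cover 9.22% of the exon bases of Idi1 and 12.1% of those of Hmgcs1.

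Lss, the lanosterol synthase, was at 41.4 and 44.5 CPM in Mgp1U1, overlapping with Mgp1U3 at 43.4 and 40.6 CPM, while Mgp1 and Mgp2 had 53.6 to 61.0 CPM. It lost its call without either Mgp1U1 library (adjusted p up to 0.347), and Cyp51 and Hmgcs1 did so too (up to 0.0871 and 0.314). Other called members were Fdft1, the squalene synthase, and Nsdhl, Hsd17b7 and Sc5d, which act late in sterol synthesis, with differences of -0.18 to -0.14. Pmvk, the phosphomevalonate kinase, had a difference of 0.08 and was not called. Leaving out the line Mgp1 left 2 of the 21 called lower, and leaving out either Mgp1U1 library left 1. Without the first or second Mgp1 library the count was 4 and 3, and without the first or second Mgp2 library 12 and 13. The list median stayed between -0.17 and -0.10 over all alternatives.

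In fatty acid synthesis and storage 3 of 19 tested genes were lower (15.8%, against 2.12% of all tested genes) and 0 higher, with a median difference of -0.11. Scd1, a stearoyl-CoA desaturase, had 83.4 and 85.7 CPM in Mgp1U1, against 105 and 109 in Mgp1, 92.3 and 89.5 in Mgp1U3, and 104 and 105 in Mgp2 (difference -0.19 ± 0.03, adjusted p = 0.00671). Both Mgp1U1 libraries were below the other 6, with Mgp1U3 the nearest line. Fads1, a fatty acid desaturase, and Elovl6, an elongase, had differences of -0.17 and -0.15 (adjusted p = 0.0256 and 0.0499). All 3 lost their calls without either Mgp1U1 library, with adjusted p of up to 0.184, 0.381 and 0.466.

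**Figure D4:**
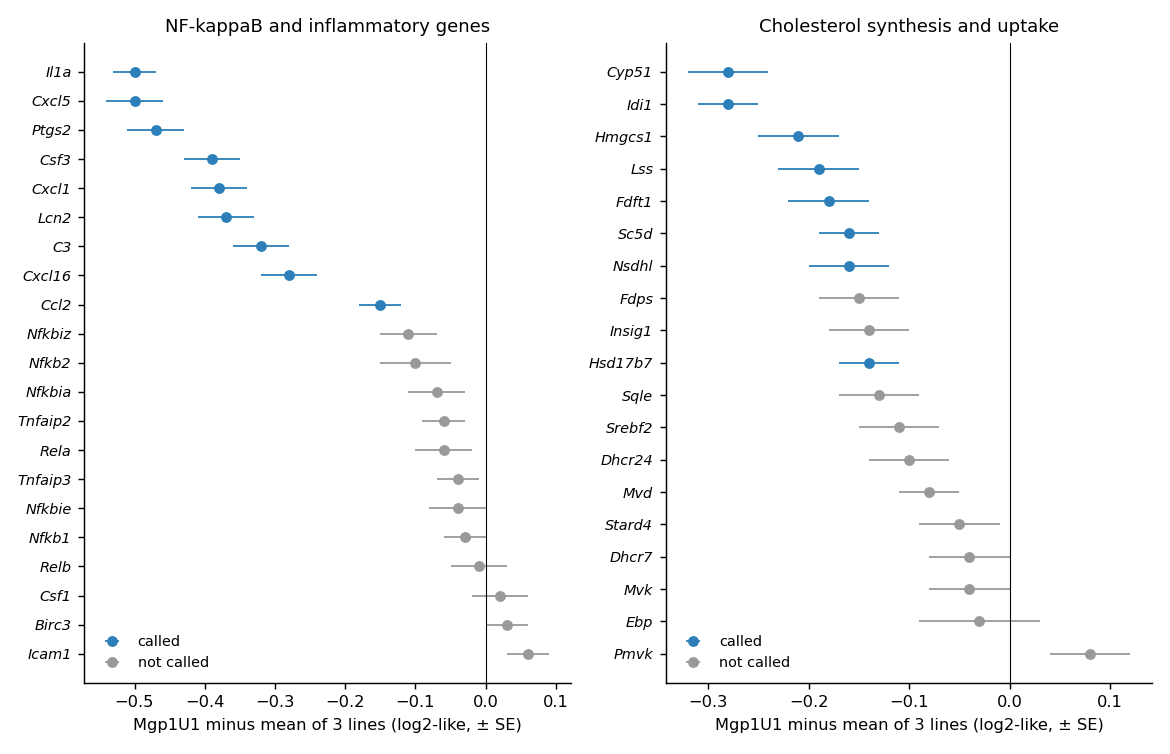
Difference of Mgp1U1 from the mean of the 3 other lines (x axis, deposited log2-like scale, ± SE) for the 21 tested genes of the NF-kappaB list (left) and 19 of the 21 of the cholesterol list (right), called genes in blue. Differences reach -0.50 in the first list, where 12 genes near 0 are not called, and -0.28 in the second, where 18 of the 19 drawn lie below 0.

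Among regulators of mineralization, the process in which Mgp acts, 2 of 11 tested genes were higher (18.2%, against 1.33% of all tested genes) and 0 lower. These were Sparc, described above, and Alpl, the tissue-nonspecific alkaline phosphatase that splits pyrophosphate. Alpl had 10.6 and 11.8 CPM in Mgp1U1 and 7.90 to 9.02 CPM in the other 6 (difference 0.15 ± 0.03, adjusted p = 0.0231). Its call was lost without either Mgp1U1 library (adjusted p up to 0.396) and without either Mgp1 library (0.0606 and 0.0664). Ggcx, the vitamin K-dependent carboxylase that modifies matrix Gla protein, had a difference of 0.00, and Runx2, the osteoblast transcription factor, of -0.02.

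Of 13 tested genes of bone morphogenetic protein signalling 1 was higher and 1 lower (against 2.12% lower and 1.33% higher of all tested genes), and they were paralogous targets. Id2, an inhibitor of helix-loop-helix factors, had 37.4 and 38.1 CPM in Mgp1U1, against 28.4 and 25.4 in Mgp1, 42.4 and 38.2 in Mgp1U3, and 22.4 and 20.5 in Mgp2 (difference 0.23 ± 0.04, adjusted p = 0.00642). Mgp1U1 thus lay above Mgp1 and Mgp2 but not above Mgp1U3. Id1 had 11.3 and 12.7 CPM in Mgp1U1, against 13.7 and 17.1 in Mgp1, 19.4 and 16.5 in Mgp1U3, and 18.5 and 17.7 in Mgp2 (difference -0.22 ± 0.04, adjusted p = 0.0164). Both calls were lost without either Mgp1U1 library, with adjusted p up to 0.166 for Id2 and 0.288 for Id1. The receptors and Smads tested, Bmpr1a, Bmpr2, Acvr1, Smad1, Smad4, Smad5 and Smad7, were not called.

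Laminin and integrin chains gave 3 genes lower and 1 higher of 18 tested, against 2.12% lower and 1.33% higher of all tested genes. Lamb3, the beta-3 chain of laminin-332 in epithelial basement membrane, had 35.7 and 35.4 CPM in Mgp1U1, against 52.4 and 55.4 in Mgp1, 53.7 and 54.0 in Mgp1U3, and 53.6 and 50.8 in Mgp2. The other 3 lines were nearly level at 53.3 ± 0.972 CPM (SD of line means, n = 3), and the difference was -0.37 ± 0.04 (adjusted p = 5.452e-05). Lama3, the alpha-3 chain of the same laminin, had 11.6 and 11.2 CPM in Mgp1U1 and 12.1 to 20.3 CPM in the other 6 (difference -0.23 ± 0.04, adjusted p = 0.00616), and was not called against Mgp2 alone (adjusted p = 0.316). Itga2, a collagen-binding integrin chain, had 118 and 117 CPM in Mgp1U1, below Mgp1 and Mgp1U3 (150 to 180 CPM) but not below Mgp2 (102 and 121 CPM). Itga1, another collagen-binding chain, was higher, at 25.1 and 20.2 CPM in Mgp1U1 and 13.0 to 19.1 CPM in the other 6. The calls of Lama3 and Itga2 were lost without either Mgp1U1 library (adjusted p up to 0.173 and 0.293), and that of Itga1 without the first (0.338).

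Of 12 tested metalloproteinases and protease inhibitors 3 were lower and 0 higher, against 2.12% lower and 1.33% higher of all tested genes. Beside Serpine2, described above, Mmp10, the stromelysin-2 protease, had 12.2 and 12.4 CPM in Mgp1U1 and 14.6 to 22.4 CPM in the other 6 (difference -0.22 ± 0.04, adjusted p = 0.00616). The groups did not overlap, but Mmp10 lost its call without either Mgp1U1 library (adjusted p up to 0.141). Among 15 mesenchymal and matrix genes Sparc and Col6a1 were higher and 1 gene was lower, against 2.12% lower and 1.33% higher of all tested genes. Among 18 epithelial adhesion genes 1 was called in each direction, against the same shares. Krt8, a simple-epithelial keratin, was higher (422 and 405 CPM, against 338 to 403 CPM in the other 6) and Dsp, which anchors keratins at desmosomes, was lower (154 and 152 CPM, against 142 to 212 CPM in the other 6). Dsp overlapped with Mgp2, and both lost their calls without either Mgp1U1 library, with adjusted p up to 0.499 and 0.396.

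Of the 8 tested genes on the histone list 3 were higher (37.5%, against 1.33% of all tested genes) and 0 lower. The linker histone genes H1f0 and Hist1h1c had differences of 0.23 and 0.19, and the core histone gene Hist1h2bc of 0.16. H1f0 was at 981 and 1028 CPM in Mgp1U1 and at 691 to 1015 CPM in the other 6, where Mgp2 overlapped with it. All 3 calls were lost without either Mgp1U1 library, with adjusted p up to 0.331, 0.334 and 0.577. By name 30 histone genes were tested, of which 8 were called higher and 0 lower, and all 30 differences were above 0. Of all tested genes 52.6% had a difference below 0. The 5 called genes that the list lacks, looked up after values were seen, were the linker histone genes Hist1h1d (0.15) and Hist1h1e (0.23) and the core histone genes Hist1h2be (0.21), Hist1h2bj (0.24) and Hist1h4d (0.24). Each of these 5 lost its call without at least 1 Mgp1U1 library (adjusted p up to 0.569), and histone genes are uncertain where near-identical copies share reads. Among output genes of ERK signalling Ier3 and Jun were lower and Etv5 higher, of 20 tested, against 2.12% lower and 1.33% higher of all tested genes. Ier3, an immediate early gene, had 228 and 232 CPM in Mgp1U1 and 268 to 338 CPM in the other 6 (difference -0.32 ± 0.04, adjusted p = 5.084e-04) and kept its call in each alternative except the fit on line means. Jun overlapped with Mgp1U3, and Jun and Etv5 lost their calls without either Mgp1U1 library (adjusted p up to 0.431 and 0.401).

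Elsewhere few list members were called, to be read against the 2.12% lower and 1.33% higher of all tested genes. Of 13 tested genes of class I antigen presentation the proteasome-related genes Psmb8 and Psme1 were higher (0.20 and 0.17). The chaperone Pdia3, on this list and on that of 19 endoplasmic reticulum chaperones, was lower (-0.15). Of 22 hypoxia and glycolysis genes Pgam1 was higher (0.20) and Pfkp lower (-0.22). Of 17 genes of the YAP and TEAD list Lats2, a kinase that restrains YAP, was lower (-0.23), but it is uncertain because Gm49361 covers 42.4% of its exon bases. Single members were called among 20 ATF4 targets (Psph, 0.15), 14 p53 targets (Ccng1, -0.13) and 24 antioxidant genes (Gsta4, 0.17). Among 15 genes that process small RNAs, the machinery a hairpin uses, Ddx17, an RNA helicase, was lower (-0.18). Each of these 10 lost its call without at least 1 Mgp1U1 library, with adjusted p of 0.166 to 0.548 at most. None of 36 cell cycle, 43 cytoplasmic ribosomal protein, 30 respiratory chain or 13 interferon-stimulated genes was called, by limma or by voom. An unadjusted limma p under 0.05 was found in 2, 11, 5 and 3 of them, against 1716 of all 9109 tested genes. The 11 ribosomal protein genes and the 5 respiratory chain genes among these were all higher. The ribosomal protein list had a median difference of 0.08, and its summed level of 21400 to 21500 CPM in Mgp1U1 lay within the 18700 to 23700 CPM of the other 6 libraries.

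**Figure D5:**
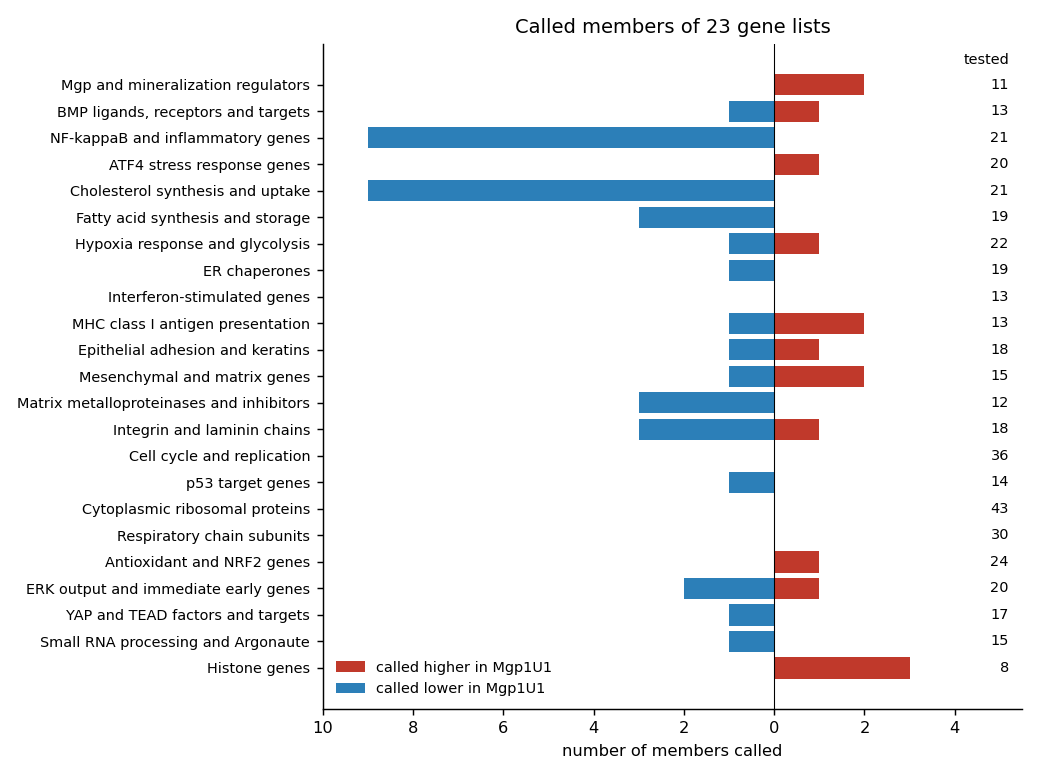
Number of members called higher (red, to the right of 0) and lower (blue, to the left of 0) in Mgp1U1 for 23 gene lists, with the number tested at the right. The NF-kappaB and cholesterol lists have 9 lower and 0 higher each, and 4 lists have no called member.

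Each other line was set against its own 3 comparison lines in the same fit, to read the count for Mgp1U1 against. Mgp1 differed in 467 genes (5.13%), Mgp1U3 in 1068 (11.7%) and Mgp2 in 1294 (14.2%), so the 314 of Mgp1U1 were the fewest of the 4. Both libraries of a line were above or below all 6 others in 12.7% of tested genes for Mgp1U1, against 15.1% for Mgp1, 21.3% for Mgp1U3 and 20.4% for Mgp2. These comparisons share their libraries, and no test of a difference between the counts was made. By root mean square over tested genes Mgp1U1 was 0.0966 from Mgp1, 0.0984 from Mgp1U3 and 0.0940 from Mgp2, against 0.0554 between its own libraries. Between the libraries of the other lines it was 0.0533 in Mgp1, 0.0795 in Mgp1U3 and 0.105 in Mgp2. The libraries of Mgp2 thus differed more from each other than the means of Mgp1U1 and Mgp2 did. Distances between lines are those of line means, while replicate values compare single libraries, so the measures are unlike. The other 3 lines were 0.0925 to 0.124 from each other.

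The genes called against each line were also read in the 4 hygromycin-selected lines named after Slpi, which makes 14 other libraries. Those lines were normalized in a separate table, so the CPM levels are set side by side with no test. Of the 63 genes with a proper name, 29 were outside all 14 libraries in both Mgp1U1 libraries, 5 above and 24 below (46%). Their choice had already put them outside 6 of the 14. Of all 9109 tested genes 465 were outside all 14 (5.1%), and of the 1131 outside the other 6 by CPM 41.1% were, so that the share of the 63 is near that background. Sparc, Igfbp4, Col6a1 and Flt1 of the 12 highest were above all 14, and Sh3bgrl, Pmepa1, Neat1, Coro2a, Inhba, Sdc4, Dusp3 and Csf3 of the 12 lowest were below all 14. Sh3bgrl ranged from 125 to 162 CPM in the lines named after Slpi, and Sdc4 from 573 to 689 CPM. Ptgs2 was lower there than in Mgp1U1, at 626 to 904 CPM, and Has2, at 289 to 338 CPM, overlapped with it. Of other NF-kappaB list members, Il1a (0.491 to 2.02 CPM) and Cxcl5 (7.68 to 13.1 CPM) were also lower there than in Mgp1U1. Lcn2 (3.78 to 6.23 CPM) overlapped with Mgp1U1. Pcolce, at 78.8 to 95.4 CPM, and Lgr6, at 125 to 145 CPM, were above the Mgp1U1 level there. Of the cholesterol list, Hmgcs1 (100 to 131 CPM) and Idi1 (57.2 to 84.9 CPM) overlapped there with Mgp1U1. Cyp51 (154 to 182 CPM) and Lss (56.1 to 62.5 CPM) were above the Mgp1U1 level there. A change made by the hairpin and a difference between the infected cell populations cannot be told apart, since each hairpin is represented by 1 line.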

How the data were processed

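RNA from 4T1 cells was amplified from 100 ng (NuGEN Ovation), fragmented to about 200 bp and read at 76 bp, per the labels' protocols. Per the submitters' processing notes the tools were Bowtie2, HTSeq and DESeq with mm10. The deposited values are variance-stabilized by the authors on a log2-like scale. Their closed form was inverted, which gave whole reads in 100% of values (tolerance 0.001). CPM are these reads scaled to the same total in each library.

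A means model per hairpin was fitted to the 8 deposited log2-like columns with limma 3.58.1 (R 4.3.3, intensity trend, two-sided, Benjamini-Hochberg adjustment). Tested were 9109 of 23480 genes, those with a mean at least 1 unit above the table's smallest value (139 scaled reads), and called those with an adjusted p under 0.05. Mgp1U1 was contrasted with the mean of the 3 lines and with each line. The fit was also run on values simulated with replicate spread and no spread between lines, which cannot show its error where lines differ. Folds are ratios of CPM means.

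Columns could be tied to hairpins but not to single labelled samples. Named genes were the 12 largest called differences per direction among proper-named genes called against each line with both libraries outside the other 6, and up to 4 called members per list. Other called members of the NF-kappaB and cholesterol lists, members named as not called, and the genes under the other observations were named after their values were seen. Members and lists were chosen with earlier results of these data known. Alternatives covered filters, scaling, voom, line means, the column number as a block and each library or line left out. Coordinates and exon overlaps are from GENCODE M21. A few list members count in the list totals but are not reported here by name.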

Additional observations from a re-analysis of the deposited data

How the results depend on the processing

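Of the called genes named, Ccl2 changed direction in 1 alternative: without the line Mgp1U3 its difference was 0.10 (adjusted p = 0.146). Fewer or more libraries or genes moved the counts of calls. The count against the mean of the 3 lines (314) was 504 with all 10 libraries in 1 fit, 178 with no filter, 71 of 2555 genes with a filter at 3 units, and 0 with line means as samples. It was 156 without the line Mgp1 and 1494 without the line Mgp2, and 49 to 1065 when 1 library was left out. Setting medians equal (308), quantile normalization (302), voom (381) and leaving out the line Mgp1U3 (426) kept it within 1.5 times. With no filter the count was 207 against Mgp1, 223 against Mgp1U3, 264 against Mgp2 and 34 against each line. Leaving out a library of either compared line gave 43 to 62 against Mgp1, 53 to 428 against Mgp1U3 and 79 to 1691 against Mgp2. Counts against a single line without a library of another line are not given. With any 1 library left out, the count against each line ran from 8 to 123. Fits without 1 Mgp1U1 library assume that the lone library varies like the other groups.

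Of the 60 named genes tested, 20 lost their call with no filter, 6 of 25 with the filter at 3 units, 4 with medians set equal, 5 with quantile normalization, 1 with voom, 1 with all 10 libraries, and 35 and 36 without the first or second Mgp1U1 library. All 60 lost it with line means as samples, a design with 1 value against 3.

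Whether the column numbers pair libraries was checked by the correlation of replicate deviations. It ran from -0.17 to 0.28 over the 6 pairs of lines and was above 0 in 3. The highest values were 0.22 for Mgp2 with Mgp1 and 0.28 for Mgp2 with Mgp1U3. These values do not settle whether libraries of the same number share a step. With the replicate block the counts were 448 against the mean of the lines, 724 against Mgp1, 669 against Mgp1U3, 630 against Mgp2 and 77 against each line, and no named gene lost its call.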

Other observations

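Further genes of the 64 called against each line, picked after their values were seen and with no test of a common theme, are given here. Lgr6 and Flt1, receptors described above, were higher, and the 5 that follow were lower. Dll1, a Notch ligand, had 4.33 and 6.54 CPM in Mgp1U1 and 8.90 to 13.2 CPM in the other 6 libraries (difference -0.33 ± 0.05, limma adjusted p = 0.00143), though an opposite-strand gene covers 20.5% of its exon bases. Wnt7a, a Wnt ligand, had 8.06 and 8.78 CPM in Mgp1U1 and 12.3 to 16.1 CPM in the other 6 (difference -0.27 ± 0.03, adjusted p = 3.303e-04). Fgfbp1, which releases fibroblast growth factors from the matrix, had 32.7 and 31.6 CPM in Mgp1U1 and 42.0 to 53.5 CPM in the other 6 (difference -0.34 ± 0.04, adjusted p = 1.745e-04). The cytokine gene Il24, at 62.9 and 61.0 CPM in Mgp1U1 and 73.2 to 88.8 CPM in the other 6, and the ephrin receptor gene Epha4, at 10.3 and 11.5 CPM in Mgp1U1 and 13.7 to 17.9 CPM in the other 6, were also lower. Of these 5, Fgfbp1 was also below the levels of the lines named after Slpi, which had 86.3 to 117 CPM, while Wnt7a (3.80 to 6.53 CPM), Epha4 (4.70 to 8.95 CPM) and Il24 (27.2 to 41.5 CPM) were lower there than in Mgp1U1. Dll1, at 6.09 to 7.79 CPM there, overlapped with Mgp1U1.

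Other genes of the 64 that were lower, picked in the same way, include Zbed4, Rfxap, Bhlhe40 and Ets2. Zbed4, a zinc finger protein, had 7.04 and 8.04 CPM in Mgp1U1, against 16.1 and 15.8 in Mgp1, 11.9 and 12.2 in Mgp1U3, and 14.7 and 14.9 in Mgp2 (difference -0.35 ± 0.03, adjusted p = 6.045e-05). Rfxap, a subunit of the factor that drives class II histocompatibility genes, had 7.22 and 8.53 CPM in Mgp1U1 and 11.2 to 14.1 CPM in the other 6 (difference -0.27 ± 0.03, adjusted p = 6.838e-04). Bhlhe40, a repressor tied to the circadian clock, had 79.8 and 76.6 CPM in Mgp1U1 and 94.6 to 107 CPM in the other 6 (difference -0.27 ± 0.04, adjusted p = 0.00122). Ets2, an ETS factor, had 61.7 and 58.6 CPM in Mgp1U1 and 68.6 to 75.9 CPM in the other 6 (difference -0.21 ± 0.04, adjusted p = 0.00832). The matrix cross-linker gene Loxl4 and the actin bundler gene Lcp1 were 1.24- and 1.27-fold lower, and the prolactin-family gene Prl2c2 was 1.45-fold lower, an uncertain value because near-identical copies exist. In the lines named after Slpi, Prl2c2 had 2.71 to 4.7 CPM, against 33.7 and 33.3 CPM in Mgp1U1. Loxl4 was also lower there than in Mgp1U1, Ets2 overlapped with it, and Lcp1, Zbed4, Rfxap and Bhlhe40 were higher there. Without 1 Mgp1U1 library the calls against the mean of the lines were lost for Dll1, Il24, Epha4, Rfxap, Bhlhe40, Ets2 and Loxl4 (adjusted p up to 0.0905, 0.0871, 0.228, 0.0519, 0.103, 0.297 and 0.0789), and Wnt7a, Fgfbp1, Zbed4, Lcp1 and Prl2c2 kept theirs.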
